A study of Danio rerio with 24 samples.

Results

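The nuclear genes of oxidative phosphorylation were followed in the eyes of zebrafish larvae treated with mebendazole (MBZ) or with a structurally related control compound (BBC). A gene was taken as a member where its RefSeq symbol begins with ndufa, ndufb, ndufc, ndufs or ndufv (complex I, NADH dehydrogenase), sdh (complex II, succinate dehydrogenase), uqcr or cyc1 (complex III, the cytochrome bc1 complex), cox4 to cox8 (complex IV, cytochrome c oxidase), or with atp5, also as a synonym (complex V, the ATP synthase). Of 111 such genes, 76 had at least 1 probe on the array, with 98 probes among them, and each was represented by its brightest probe. For 75 of the 76, at least 1 condition had a clear signal on each of its 4 arrays, and these were tested together with all other such probes of the array, 31507 in all. The exception was ndufs8b, a core subunit of complex I, which reached that level on 2 of 24 arrays and was not tested. The tested members were 35 of complex I (32 subunits and 3 assembly factors), 7 of complex II (5 subunits and 2 assembly factors), 7 of complex III, 12 of complex IV and 14 of complex V (11 subunits and 3 regulators or coupling factors). For the other 35 genes, among them ndufs7, uqcrc1, cox6c and cox8a, no value is given here. The subunits that the mitochondrial genome encodes were not analysed here.

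Complexes I and II pass electrons from NADH and succinate to ubiquinone, complex III passes them on to cytochrome c, and complex IV passes them to oxygen. Complexes I, III and IV pump protons across the inner mitochondrial membrane, and complex V uses the return of those protons to make ATP. Photoreceptors are packed with mitochondria in their inner segments, and several subunits exist as isoform pairs whose use differs between tissues.

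Both compounds were given to the AB line from 48 hpf at 0.3 µM, and eyes were collected after 12, 24 or 36 h, at 60, 72 or 84 hpf. Each of the 6 conditions (BBC or MBZ, 3 exposure times) had 4 samples, stated to be independent experiments, each of eyes pooled from several larvae. MBZ is an antiparasitic benzimidazole carbamate; BBC differs from it by a butyl ester on the benzoyl ring. No eyes without a benzimidazole were among the samples, so both arms carried one, and the pool holds every cell type of the eye. RNA was labelled with a single dye and hybridised to 24 arrays on 6 slides, with 2 BBC and 2 MBZ samples of 1 exposure time on each slide. Each exposure time had slides and a scan day of its own, so that age, length of exposure and scan day cannot be told apart. BBC samples lay at the same positions of every slide and MBZ samples at the others, so position and compound cannot be told apart either.

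Levels are log2 values after division of each spot's processed signal by its array's 75th percentile, so 0 stands for that percentile and negative values are dimmer. That percentile ran from 437 to 1433 intensity units, with condition medians of 1114, 542 and 1118 for BBC and 1000, 613 and 1040 for MBZ at 60, 72 and 84 hpf, and 66.5% to 76.7% of probes per array were well above background. Differences are log2 fold changes from 1 limma fit over all arrays, with Benjamini-Hochberg adjusted p over all tested probes. A difference is called where adjusted p was under 0.20 between compounds or under 0.05 between ages. Levels of different probes are not compared, since a probe's brightness depends on its sequence as well as on RNA.

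On their brightest probes, the oxidative phosphorylation genes in MBZ eyes stayed close to their level in BBC eyes at every exposure time. After 12 h, 0 of 75 members were called, and after 24 h again 0, against 0.321% of all tested probes at each time. After 36 h, 1 of 75 was called, against 5.62% of all tested probes. The called gene was ndufs8a, an iron-sulfur core subunit of complex I. In a fit of only the 36 h arrays, 0 of 75 members and 0.448% of all tested probes were called. The share of 5.62% thus depends on the spread taken from the other ages. On a second probe that was not used for the count, atp5f1d, a subunit of complex V, was lower in MBZ eyes at 36 h. That probe was at -0.40 (limma adjusted p = 0.0343), and the brighter one at 0.02 (limma adjusted p = 0.961). The median difference over the members was -0.04, 0.04 and 0.01 at 12, 24 and 36 h, where the median over all tested probes was 0.01, -0.01 and -0.01. At an unadjusted p under 0.05 the limma fit found 0, 2 and 1 members at 12, 24 and 36 h.

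The 95% intervals were set for each member alone, under a spread estimated over all 6 conditions. For 72, 71 and 69 of 75 members at 12, 24 and 36 h, the 95% interval of the difference lay inside 0.5 in either direction on the log2 scale, and for all 75 at each time it lay inside 1. Many members spread more in MBZ eyes at 36 h than at 12 h. For atp5po the standard deviation was 0.307 against 0.095, though for ndufa9a it was 0.013 against 0.094. Where the spread was larger at 36 h, the interval at that time can be too narrow. After 12 h the single differences lay between -0.20 and 0.21, after 24 h between -0.18 and 0.31, and after 36 h between -0.27 and 0.33. By complex, the median differences at 36 h were 0.03 for complex I, 0.05 for complex II, -0.01 for complex III, -0.02 for complex IV and 0.00 for complex V. At 24 h all 7 members of complex III and 6 of 7 of complex II were above 0, with medians of 0.06 and 0.10, and at 12 h 5 of 35 members of complex I were above 0, with a median of -0.06. None of these members was called. A difference that was not called does not show that the compounds, which differ by the butyl ester, act alike on a gene.

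**Figure D1:**
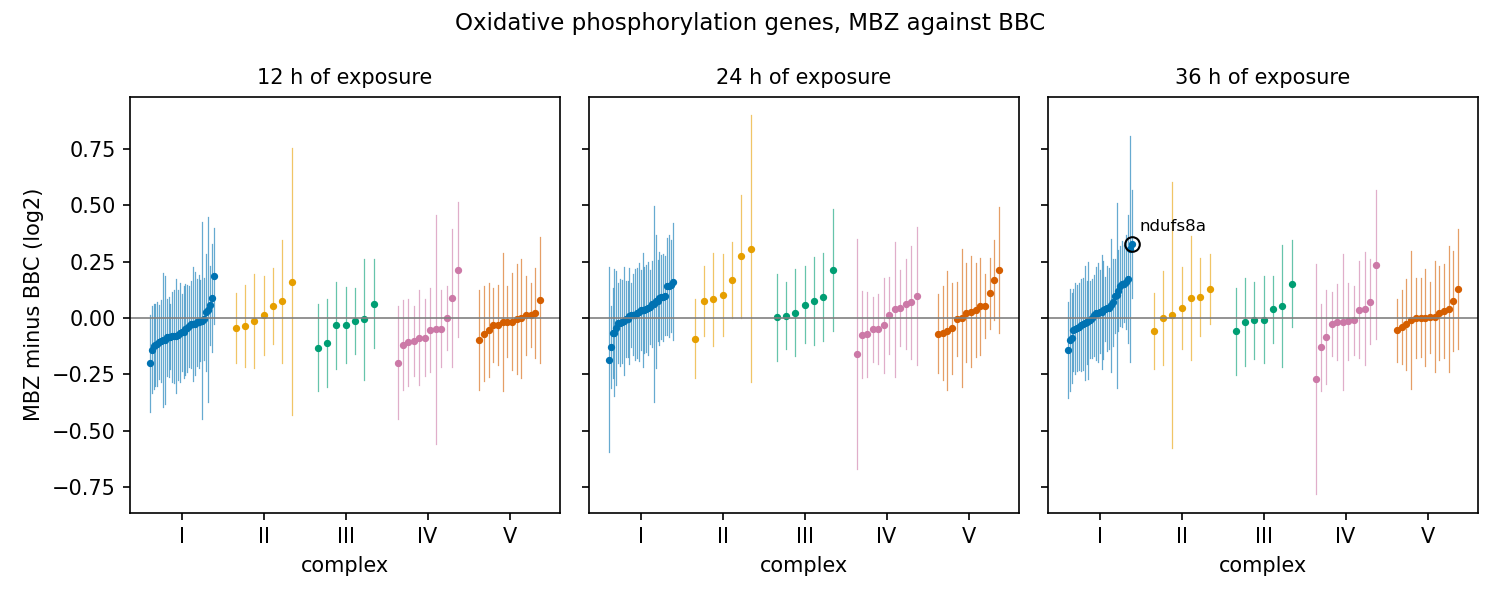
Difference between MBZ and BBC eyes (log2, y axis) for each member at each exposure time, grouped by complex I to V, with 4 arrays per compound and time. Nearly all members lie within 0.3 of 0, and the 1 called member is ndufs8a at 36 h, at 0.33.

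For ndufs8a, the 4 BBC samples at 36 h read 3.07, 2.86, 3.24 and 2.74. The MBZ samples read 3.13, 3.73, 3.21 and 3.17. The MBZ replicate 2 sample was the highest, and the groups overlapped. The fitted difference was 0.33 ± 0.115 (SE, adjusted p = 0.184), a 1.26-fold higher level in MBZ eyes with a 95% interval of 0.09 to 0.57 on the log2 scale. The exact two-sided permutation test over these samples gave p = 0.143, where the smallest p it can give is 0.0286. Within the slides the difference was 0.47 for replicates 1 and 2 and 0.19 for replicates 3 and 4. Without MBZ replicate 2 the difference was 0.19 with limma adjusted p = 0.43, and the call was lost in 22 of 36 alternative fits, among them fits that left out a single array of any of the 6 conditions. At 12 and 24 h the difference was 0.09 and -0.01 (exact p = 0.0857 and 0.857).

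Both slides of 36 h differed in direction. The median difference over the members was 0.11 on the slide with replicates 1 and 2, where 65 of 75 members were above 0, and -0.08 on the slide with replicates 3 and 4, where 15 were. At 24 h the slide medians were 0.08 and -0.003, and at 12 h they were -0.06 and -0.01. A shift of the whole group of genes between compounds at 36 h therefore did not hold on both slides.

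The members whose BBC and MBZ samples did not overlap were few and were not called. At 12 h the 1 such member was ndufa7, an accessory subunit of complex I, at -0.12, against 4.15% of all tested probes. At 24 h there were 4, against 3% of all tested probes, and 3 of them belonged to complex II. These were sdhc, a membrane anchor of the complex, at 0.27 (95% interval 0.00 to 0.55), sdhda, another anchor, at 0.31, and sdhaf2, which helps attach the flavin cofactor, at 0.17; the last was atp5pf, a stalk subunit of complex V. At 36 h the 1 such member was cox4i2 at 0.24, on 3 BBC values, against 5.88% of all tested probes. The change of the MBZ effect from 12 to 36 h was called for 0 of 75 members, against 0.362% of all tested probes, with 1 member at an unadjusted p under 0.05 in limma.

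Between ages these genes differed by more than between compounds, with changes from -0.67 to 2.77 over the whole span in BBC eyes. In BBC eyes 50 of 75 members were called between 60 and 72 hpf, 38 higher and 12 lower, where 73.5% of all tested probes were called (43.8% higher, 29.7% lower). Between 72 and 84 hpf 50 were called, 11 higher and 39 lower, against 57.2% of all tested probes (23.2% higher, 34% lower). Over the whole span, from 60 to 84 hpf, 41 were called, 22 higher and 19 lower, against 66.7% (34.5% higher, 32.2% lower). In MBZ eyes the counts were 55 (45 higher, 10 lower), 52 (9 higher, 43 lower) and 40 (28 higher, 12 lower), against 72.8% (42.9% higher, 29.9% lower), 61.1% (24.9% higher, 36.2% lower) and 64.4% (32.4% higher, 32% lower). With the 75th percentile, the members called over the whole span were 54.7% in BBC eyes and 53.3% in MBZ eyes, below the share of all probes. From 72 to 84 hpf they were 66.7% and 69.3%, above it, but neither relation held under every scaling described below. For BBC the median change of the members was 0.33, -0.25 and 0.02 over these 3 spans, where that of all probes was 0.20, -0.13 and 0.03. For MBZ it was 0.37, -0.28 and 0.08, where that of all probes was 0.19, -0.14 and 0.01.

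The split between higher and lower depended on how the arrays were scaled. From 60 to 84 hpf in BBC eyes the calls were 22 higher and 19 lower with the 75th percentile, 18 and 16 from the median spot signal less the median local background plus an offset, 11 and 25 with the array median, 38 and 7 with quantile normalization, and 44 and 6 in the authors' normalized values. From 60 to 72 hpf the 5 scalings gave 38 and 12, 34 and 12, 21 and 26, 38 and 11, and 36 and 13, in the same order. From 72 to 84 hpf they gave 11 and 39, 10 and 34, 16 and 24, 16 and 20, and 20 and 19. In MBZ eyes the split from 60 to 84 hpf ran from 18 and 17 with the array median to 48 and 6 in the authors' values. The share of members called moved too. From 72 to 84 hpf it was below that of all probes under every scaling but the 75th percentile, in both compounds. The authors' values had 39 of 75 members called there in BBC eyes and 38 in MBZ eyes, against 53.3% and 56.3%. Over the whole span those values had 50 and 54 called, against 60% and 58.4%, so above the share of all probes. The scalings themselves moved the median of all probes from 60 to 72 hpf in BBC eyes from -0.12 to 0.36. A direction for the group as a whole is therefore not given, and the genes described next as rising or falling are those called the same way under all 5 scalings unless stated. From 60 to 84 hpf these were 10 higher and 6 lower in BBC eyes, and 15 higher and 5 lower in MBZ eyes. How many of all tested probes were called the same way under all 5 scalings was not counted. Counts of members under all 5 scalings therefore have no share of all probes to stand against.

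**Figure D2:**
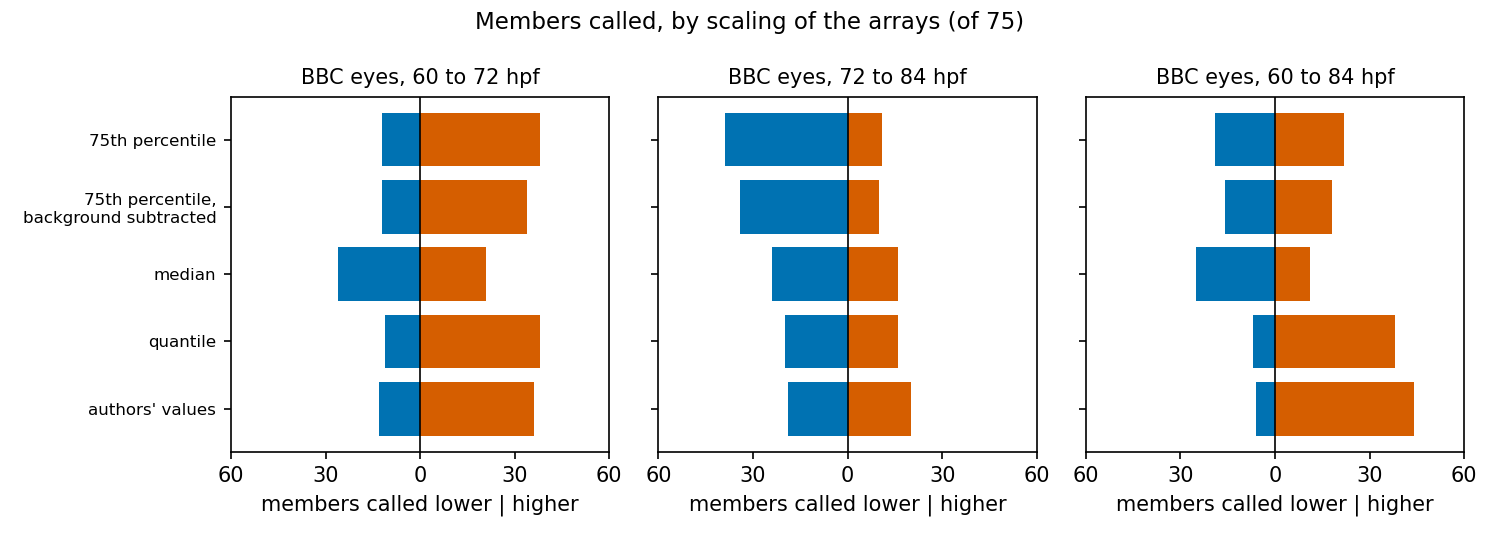
Number of the 75 members called higher and lower between ages under each of the 5 scalings of the arrays. From 60 to 84 hpf in BBC eyes the higher calls range from 11 to 44 and the lower calls from 6 to 25.

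A rise to 72 hpf followed by a fall to 84 hpf was the commonest course. It was called for 30 of 75 members (40%) in BBC eyes, against 22.3% of all tested probes, and for 36 (48%) in MBZ eyes, against 24.4%, and all 30 of the BBC members were among the 36. The opposite course was called for 7 members (9.33%) in each compound, the same 7, against 14.2% and 16.1%. Under the other scalings the first course fell to as few as 15 members in either compound, so its share depends on the scaling. The 72 hpf arrays were also the dimmest, and what part that has in the course was not tested.

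**Figure D3:**
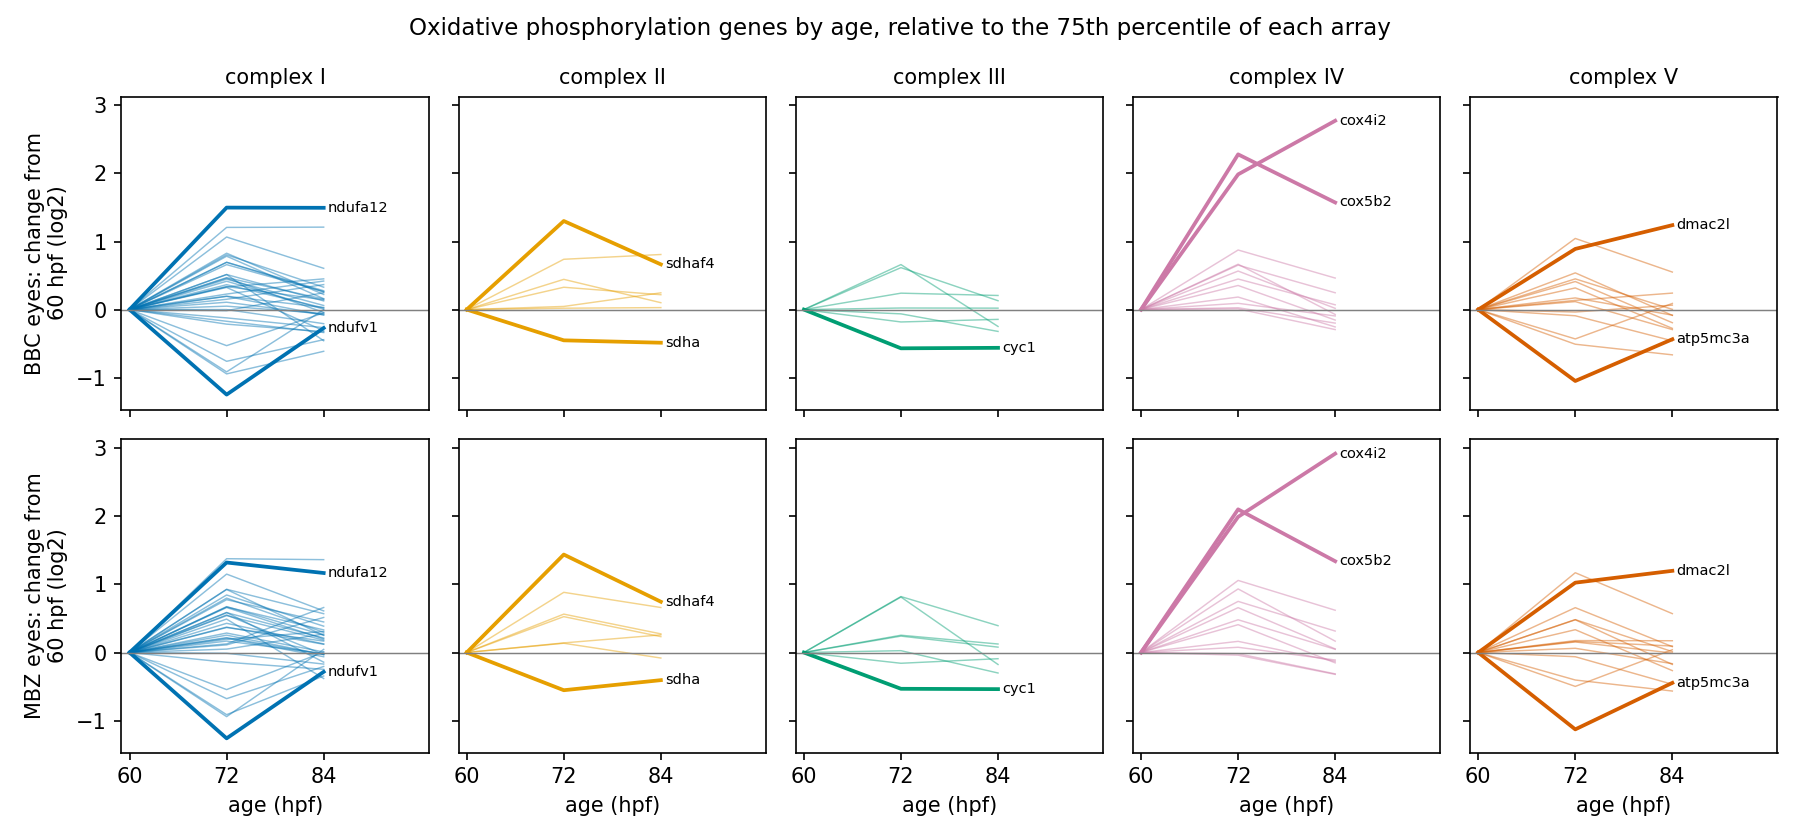
Change with age (log2, y axis) of each member in BBC and MBZ eyes, grouped by complex I to V, with 4 arrays per condition. In complex IV with this scaling 8 of 12 members were called higher from 60 to 72 hpf in BBC eyes (43.8% of all tested probes) and 10 of 12 lower from 72 to 84 hpf (34% of all tested probes), but in the second step cox5b2 was the 1 member of the complex called lower under all 5 scalings.

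In complex I the core subunits, which carry the cofactors of electron transfer, and the accessory subunits around them took different courses; this grouping was made after the values were seen and has no test. From 60 to 72 hpf in BBC eyes 17 of 26 accessory subunits were called higher and 1 lower (median 0.43), while of 6 core subunits 1 was called higher and 3 lower (median -0.27). By their symbols the 26 include ndufa4a and ndufa4l2a, though mammalian NDUFA4 is now counted with complex IV. Both were called higher from 60 to 72 hpf under all 5 scalings in both compounds. From 72 to 84 hpf 1 accessory subunit was called higher and 15 lower, and 4 core subunits higher and 1 lower. Under all 5 scalings 3 core subunits fell and 0 rose in the first step, and 10 accessory subunits rose and 1 fell. In the second step 4 core subunits rose and 1 fell, and 1 accessory subunit rose and 9 fell. In MBZ eyes the first step had 1 core subunit called higher and 3 lower, and 21 accessory subunits higher and 1 lower, of which 13 higher and 1 lower held under all 5 scalings. In the second step in MBZ eyes 4 core subunits were called higher and 1 lower, and 1 accessory subunit higher and 20 lower. Under all 5 scalings 4 core subunits rose and 0 fell there, and 1 accessory subunit rose and 7 fell. All tested probes had 43.8% higher and 29.7% lower calls in the first step for BBC, and 42.9% and 29.9% for MBZ. In the second step the shares were 23.2% and 34% for BBC, and 24.9% and 36.2% for MBZ. These shares do not apply to the counts under all 5 scalings.

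Among the core subunits, ndufv1, which binds NADH and flavin, was low at 72 hpf. In BBC eyes it read 3.52, 3.46, 3.49 and 3.45 at 60 hpf, 2.2, 2.19, 2.25 and 2.29 at 72 hpf and 3.2, 3.27, 3.26 and 3.1 at 84 hpf. The 72 hpf samples lay below all others, and the gene fell by 1.25 and rose by 0.98 on the log2 scale (adjusted p = 1.13e-10 and 1.26e-08). In MBZ eyes the steps were -1.26 and 0.98. Its neighbour in the electron path, ndufs1, changed by -0.76 and then by 0.32 on its brightest probe, and by -1.93 and then by 1.6 on its other probe. The accessory subunit ndufa9a went the same way, at -0.92 and 0.91. These genes were named after their values were seen, as called the same way under all 5 scalings in both steps.

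Over the whole span the largest called rise in complex I was that of ndufa12, an accessory subunit near the NADH-oxidising arm. Its probe was dim and read -4.42, -4.5, -4.56 and -4.48 at 60 hpf and -3.1, -2.92, -2.96 and -2.99 at 84 hpf in BBC eyes. The age groups were far apart, at 1.5 ± 0.103 (SE, adjusted p = 2.37e-10) in BBC eyes and 1.17 ± 0.103 (SE, adjusted p = 7.16e-09) in MBZ eyes. The brightest probe was that of ndufb8, a membrane-arm subunit, at 0.03 over the span in BBC eyes (adjusted p = 0.79). The largest fall was that of ndufaf7, a methyltransferase needed for assembly of the complex, at -0.61 ± 0.136 (SE, adjusted p = 4.87e-04) in BBC eyes and -0.34 ± 0.136 (SE, adjusted p = 0.0311) in MBZ eyes. In MBZ eyes the fall of ndufaf7 was not among those called under all 5 scalings.

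In complex II the flavoprotein sdha fell under all 5 scalings in both compounds. The sdha probe read 4.84, 4.81, 4.8 and 4.63 at 60 hpf and 4.21, 4.26, 4.42 and 4.25 at 84 hpf in BBC eyes, and the ages did not overlap. The change was -0.49 ± 0.083 (SE, adjusted p = 3.19e-05) in BBC eyes and -0.41 ± 0.083 (SE, adjusted p = 2.50e-04) in MBZ eyes, and all 4 of its probes were lower. The dim anchor gene sdhda read -4.19, -4.63, -4.15 and -4.26 at 60 hpf and -4.32, -3.79, -2.82 and -3.07 at 84 hpf. Its samples spread widely, and the change of 0.81 ± 0.284 (SE, adjusted p = 0.0164) was lost in 6 of 36 alternative fits (among them those without BBC 12 h replicate 2, BBC 36 h replicate 3 or BBC 36 h replicate 4), and that of 0.66 in MBZ eyes in 24 of 36, among them fits without a single array of most conditions. The brightest probe, that of sdhc, was at 0.22 (adjusted p = 0.148), and sdhdb at 0.10 (adjusted p = 0.235). The reference table lists each of the names sdhda and sdhdb as a synonym of the other gene, so which paralog a probe reads rests on its accession. The assembly factor sdhaf4, which works on sdha, rose by 0.66 in BBC eyes and 0.74 in MBZ eyes.

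In complex III, 3 of 7 members were called over the span in BBC eyes, all lower with the 75th percentile, against 66.7% of all tested probes called and 32.2% lower. Of the 7, cyc1 was called lower under all 5 scalings, while uqcrc2a, uqcrfs1 and uqcrq were called higher under 2 of them. The gene with both the brightest probe and the largest fall was cyc1, cytochrome c1, the subunit that hands electrons to cytochrome c. It read 5.71, 5.72, 5.73 and 5.7 at 60 hpf, 5.12, 5.06, 5.13 and 5.28 at 72 hpf and 5.06, 5.25, 5.21 and 5.09 at 84 hpf. The samples of 72 and 84 hpf overlapped and lay below those of 60 hpf, and over the span it was -0.56 ± 0.093 (SE, adjusted p = 2.03e-05) in BBC eyes and -0.54 ± 0.093 (SE, adjusted p = 3.66e-05) in MBZ eyes. A core protein gene, uqcrc2b, was called in both directions among the 5 scalings and is given no direction.

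Complex IV held the largest change of all members. The regulatory subunit gene cox4i2, whose mammalian counterpart is known from lung and from low oxygen, read -0.23, -0.37, 0.02 and 0.14 in BBC eyes at 60 hpf and 1.57, 1.86, 2.33 and 1.75 at 72 hpf. At 84 hpf it read 2.7, 2.59 and 2.71, the spot of replicate 3 being left out as uneven. Every later group lay above the earlier one, and the rise over the span was 6.84-fold, at 2.77 ± 0.158 (SE, adjusted p = 4.45e-11). In MBZ eyes it read -0.10, -0.12, 0.03 and 0.12 at 60 hpf and 2.77, 2.83, 3.15 and 2.85 at 84 hpf, a rise of 2.92 ± 0.146 (SE, adjusted p = 1.42e-11). The common isoform cox4i1, with the brightest probe of the complex, changed by -0.15 in BBC eyes (adjusted p = 0.182) and was called in both directions among the 5 scalings.

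The cox5b pair also parted over the span, but from 72 to 84 hpf cox5b2 fell where cox4i2 rose. The dim cox5b2 probe read -2.99, -3.27, -2.95 and -3.0 at 60 hpf, -1.0, -0.89, -0.47 and -0.74 at 72 hpf and -1.64, -1.6, -1.3 and -1.38 at 84 hpf in BBC eyes. It peaked at 72 hpf and stayed above its first level, at 1.57 ± 0.144 (SE, adjusted p = 9.82e-09) over the span and 1.34 ± 0.144 (SE, adjusted p = 9.96e-08) in MBZ eyes. Its partner cox5ba was at -0.26 (adjusted p = 0.0171), with the opposite sign under quantile normalization and in the authors' values. Among the other families cox6b1, which faces the intermembrane space, rose by 0.46, while cox6a1 was at -0.29, cox7a2l, a supercomplex factor in mammals, at -0.20 and cox6a2 at -0.09; cox7a2l turned sign under those same scalings, and cox6a1 went to 0.006 and 0. The bright genes cox5aa and cox7a2a were at 0.07 and 0.02 (adjusted p = 0.517 and 0.852), and cox6b2 at -0.07.

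In mammals NDUFA4 was first assigned to complex I and is now counted with complex IV, and NDUFA4L2 is its hypoxia-induced relative. In BBC eyes ndufa4l2a read -0.21, -0.16, 0.02 and -0.13 at 60 hpf and 0.97, 0.84, 1.28 and 1.27 at 84 hpf. The groups were well apart, and the rise was 1.21 ± 0.142 (SE, adjusted p = 2.67e-07) in BBC eyes and 1.36 ± 0.142 (SE, adjusted p = 6.52e-08) in MBZ eyes. For ndufa4a the change was 0.16 ± 0.085 (SE, adjusted p = 0.102) in BBC eyes and 0.39 ± 0.085 (SE, adjusted p = 4.99e-04) in MBZ eyes, and on its other probe 0.20 and 0.13 (adjusted p = 0.0602 and 0.236), so the call in MBZ eyes was made on 1 of its 2 probes.

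In complex V the brightest probe was that of atp5f1b, the catalytic beta subunit, at -0.28 over the span in BBC eyes (adjusted p = 0.103).  The inhibitor gene atp5if1a, which in zebrafish is needed for heme synthesis in red cells, read 5.71, 5.76, 5.73 and 5.76 at 60 hpf, 5.21, 5.32, 5.09 and 5.3 at 72 hpf and 4.95, 5.01, 5.15 and 5.2 at 84 hpf. It fell by 0.67 in BBC eyes (SE 0.1, adjusted p = 7.11e-06) and by 0.57 in MBZ eyes. Its paralog atp5if1b rose by 0.55 and 0.57, and dmac2l, a coupling factor, rose by 1.24 ± 0.134 (SE, adjusted p = 9.15e-08) and 1.2 ± 0.134 (SE, adjusted p = 1.69e-07). The proton-channel subunit gene atp5mc3a fell by 1.05 to 72 hpf and then rose by 0.61, ending at -0.44 over the span, while atp5mc3b was at 0.00. The peripheral stalk gene atp5pb fell by 0.46 in BBC eyes and by 0.47 in MBZ eyes.

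**Figure D4:**
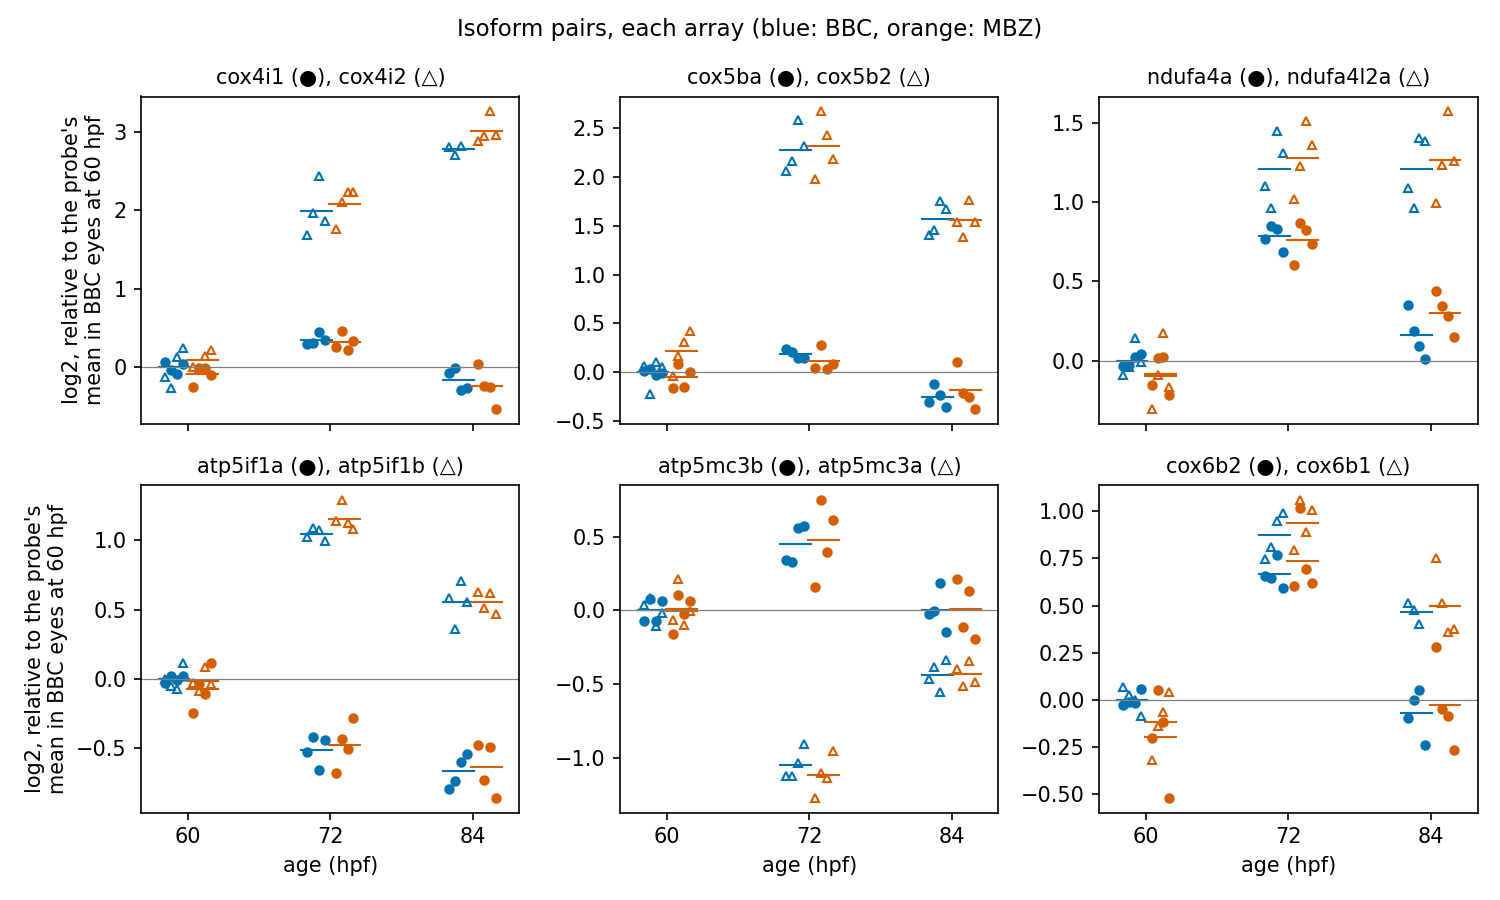
Level of each member of 6 isoform pairs on each array (y axis, log2 relative to the probe's mean in BBC eyes at 60 hpf) against age (x axis, hpf), with BBC in blue, MBZ in orange and lines at the group means. cox4i2, cox5b2 and ndufa4l2a lie above their first level at 72 and 84 hpf, while cox4i1 and cox5ba end slightly below theirs under this scaling, with the direction of both depending on the scaling.

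A ratio of both isoforms on the same array does not depend on the scaling factor of that array. From 60 to 84 hpf the log2 ratio of cox4i2 to cox4i1 changed by 2.89 in BBC eyes and 3.07 in MBZ eyes, and that of cox5b2 to cox5ba by 1.83 and 1.47. The ratio of ndufa4l2a to ndufa4a changed by 1.05 and 0.98, that of atp5if1b to atp5if1a by 1.22 and 1.14, and that of atp5mc3b to atp5mc3a by 0.44 and 0.46. For cox4i2 in BBC eyes the ratio rests on 3 samples at 84 hpf. For these pairs the ages did not overlap, and the exact permutation test gave p = 0.0286 each, the smallest it can give here, with an adjusted p of 0.0624 over the 24 tests made. No pair thus passed 0.05 after adjustment, but this adjusted p was set by that smallest p and by how many of the tests reached it. It therefore does not measure how large or how clear the change of a ratio was. The ratio of cox6b2 to cox6b1 changed by -0.58 in BBC eyes and by -0.45 in MBZ eyes (exact permutation p = 0.0286 and 0.0857), and that of sdhda to sdhdb by 0.71 and 0.39 (exact permutation p = 0.114 and 0.314). The ratio of cox6a2 to cox6a1 changed by 0.20 and 0.01 (exact permutation p = 0.371 and 0.971). Between MBZ and BBC eyes at 36 h the ratios differed by -0.24 to 0.36, with exact permutation p from 0.143 to 0.971.

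Most calls between ages were shared by both compounds, as they were over all probes. Across the 75 members the change from 60 to 72 hpf in MBZ eyes against that in BBC eyes had Pearson's r = 0.986 and Spearman's rho = 0.971, from 72 to 84 hpf 0.959 and 0.953, and over the span 0.975 and 0.956; genes are not independent replicates, and no p is given. Of the called members 48, 45 and 34 were called in both compounds, all in the same direction. That is 96%, 90% and 82.9% of the members called in BBC eyes, where over all tested probes it was 92.2%, 88.1% and 84.4%. Of the members called in MBZ eyes it is 87.3%, 86.5% and 85%, where over all tested probes it was 93.1%, 82.5% and 87.4%. The largest difference between the compounds for a single member was 0.34, 0.34 and 0.33 on the log2 scale. The course over both steps was the same in 58 of 75 members (77.3%), against 73.8% of all tested probes. The samples of 60 and 84 hpf did not overlap for 42 members in BBC eyes, against 62.6% of all tested probes, and for 26 in MBZ eyes, against 55.1%. Of the members lower without overlap in BBC eyes, 7 were so in MBZ eyes too and 13 overlapped there, and of those higher, 15 were so in both and 7 overlapped in MBZ eyes. A further 4 were higher without overlap in MBZ eyes alone. The same split was not counted over all tested probes, so it is not read as a result about these genes.

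**Figure D5:**
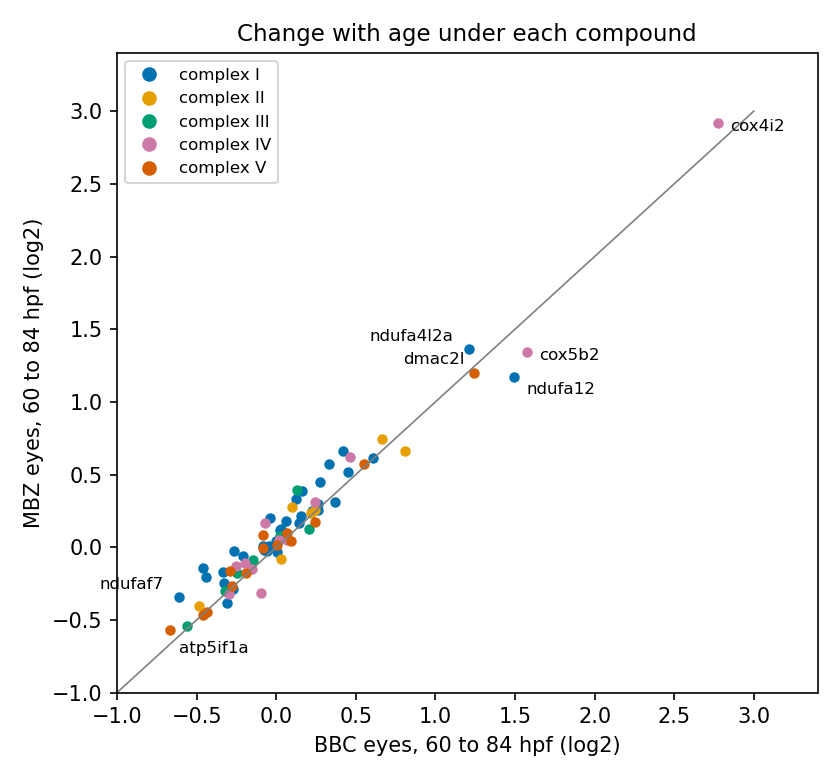
Change from 60 to 84 hpf (log2) of each of the 75 members in MBZ eyes (y axis) against BBC eyes (x axis), coloured by complex, with the line of equal change. The members lie along the line, from atp5if1a at -0.67 and -0.57 to cox4i2 at 2.77 and 2.92.

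Among lists of related genes, the glycolysis genes were called higher more often than lower over the span. In BBC eyes 19 of 28 tested genes of glycolysis were called higher and 3 lower, with a median of 0.50. Under the 5 scalings 14 to 22 were higher and 3 to 5 lower, and the median ran from 0.34 to 0.76. In MBZ eyes 21 were higher and 3 lower, against 32.4% higher and 32% lower among all tested probes. The pyruvate dehydrogenase and citric acid cycle list had 2 of 17 higher and 8 lower (median -0.19, from -0.35 to 0.10 under the scalings). Of 57 mitochondrial ribosome genes 6 were higher and 25 lower (median -0.20, from -0.35 to -0.04, and in MBZ eyes from -0.21 to 0.02 under the scalings). Of 13 genes of mitochondrial biogenesis 2 were higher and 8 lower (median -0.33, from -0.48 to -0.18). Assembly factors outside the rule had 5 of 23 higher and 8 lower (median -0.08, from -0.24 to -0.04), and electron and adenine nucleotide carriers 3 of 15 higher and 4 lower (median -0.08, from -0.24 to 0.16). The counts in BBC eyes all stand against 34.5% higher and 32.2% lower among all tested probes, with a median of 0.03. Between compounds at 36 h, 1 of 28 glycolytic genes was called higher, and of 57 mitochondrial ribosome genes 3 were called higher and 1 lower. None of the assembly factor, carrier, citric acid cycle or biogenesis genes was called. These counts stand against 5.62% of all tested probes called at 36 h (3.17% higher, 2.44% lower).

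Markers of several cell types changed over the same ages. Of 24 photoreceptor markers 23 were called higher from 60 to 84 hpf in BBC eyes (median 4.32), and their summed linear level went from 42.9 to 72.6 per array at 60 hpf to 340 to 571 at 84 hpf. Of 16 skeletal muscle markers 15 were higher (median 2.93), with sums from 12.7 to 35.5 and then from 142 to 221. Of 12 red blood cell markers 1 was higher and 10 lower (median -1.03), with sums from 217 to 352 and then from 111 to 142, and all 16 proliferation markers were lower (median -1.5). These counts stand against 34.5% higher and 32.2% lower among all tested probes. No marker of these lists was below background on every array. Among the photoreceptor markers, grk1a was well above background on 14 of 24 arrays, guca1b on 16 and opn1mw2 on 18. A clear signal in 1 condition was enough for testing, so such markers can have been tested through the ages where they are high. In pooled eyes a change in the number of cells of a type and a change in RNA per cell cannot be told apart. The part of these shifts in the changes of oxidative phosphorylation genes was not tested. Between compounds at 36 h 10 of 16 lens markers were called lower in MBZ eyes (median -0.64; sums from 486 to 664 against 816 to 1090 in BBC eyes), against 5.62% of all tested probes called. Of the other lists, 3 of 9 macrophage and microglia markers were called higher (median 0.38), 1 of 6 cardiac muscle markers lower (median -0.67) and 1 of 13 neuron markers lower, and 0 of 24 photoreceptor and 0 of 16 skeletal muscle markers were called.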

How the data were processed

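Eyes were profiled on 24 single-colour zebrafish arrays, 4 per condition. The authors deposited scanner output holding processed signal intensity per spot (background-subtracted, Agilent Feature Extraction, version 8.0 in the submitters' notes and 10.1.1.1 in the file headers) and a table of log2 normalized values, which the authors normalized between arrays with the package Agi4x44PreProcess (options not given in the sources used here) and which served as an alternative. Of 45220 spots, 1417 controls and spots marked uneven were left out. Log2 intensity minus the log2 75th percentile of the array was fitted with limma 3.58.1 (R 4.3.3) as 1 model over 6 conditions (18 residual degrees of freedom). Probes were tested if well above background on all 4 arrays of a condition. Names came from RefSeq accessions (assembly GRCz12tu, names only). Figures used matplotlib 3.10.9. The fit was tested on simulated data.

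Members and lists were chosen with earlier results of these data known. Named with values were, in each complex, the brightest member and the largest called rise and fall from 60 to 84 hpf in BBC eyes, members called between compounds, and isoform families. Others, such as ndufv1, ndufs1, ndufa9a, sdhaf4 and atp5pb, were chosen after their values were seen, as called the same way under all 5 scalings, or for groups that did not overlap. Same-numbered samples correlated at 0.154 to 0.433 at 24 h, in all 4 pairs. At 12 h they correlated at 0.029 to 0.127, and at 36 h at -0.022 to 0.368. Levels of samples within a condition correlated at 0.9842 to 0.9945, so these low values are not correlations of levels. At 24 h all 4 MBZ samples correlated best with the BBC sample of their own number, at 12 h 3 did and at 36 h 1. The numbers may thus mark pairs at 24 h, and nothing else in the labels states a pairing. The main fit paired no samples at any exposure time, and blocks for the replicate number were run as alternatives only. Values left out as uneven spots were ndufs3, cox4i2 and cox6b1 on BBC 36 h replicate 3 and ndufs3 on MBZ 36 h replicate 3. The values of 1 member are not reported here. Alternatives were the scaling, the filter, the samples fitted, the threshold, the probes averaged, blocks for slide and replicate, and each array left out. A limma p-value of the main fit sets a difference against the spread between these samples. That spread was estimated per probe over all 6 conditions and moderated across probes.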

Additional observations from a re-analysis of the deposited data

Results flagged for a closer look

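In 5 of 166 groups of 4 samples of a named gene, 1 sample stood apart by more than Dixon's 95% critical value for the gap over the range, which chance alone exceeds in about 1 in 20 groups. In MBZ eyes at 36 h, ndufs8a read 3.73 in replicate 2 (others 3.13 to 3.21), and cox6a1 read 5.06 in replicate 1 (others 4.89 to 4.90). In MBZ eyes at 24 h, replicate 2 was the highest for both cox5aa at 6.29 (others 5.95 to 5.99) and cox7a2a at 6.25 (others 5.92 to 5.94). In BBC eyes at 12 h, cox5b2 read -3.27 in replicate 2 (others -3.00 to -2.95).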

How the results depend on the processing

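The counts of called members at 12 and 24 h were 0 in every alternative run. At 36 h the count of 1 became 2 with quantile normalization, 2 with the mean over the probes of a gene and 4 in the authors' normalized values, and 0 with the median spot signal less local background plus an offset, with no signal filter, with only the compared groups in the fit and at a stricter threshold; with 1 array left out it ran from 0 to 4, the 4 coming without MBZ 36 h replicate 4. The call of ndufs8a had adjusted p from 0.0663 to 0.719 over its 36 alternatives. The count for the change of the MBZ effect ran from 0 to 1 with 1 array left out. In BBC eyes from 60 to 84 hpf a stricter threshold left 24. With 1 array left out the age counts ran from 45 to 52, 45 to 53 and 34 to 41 for BBC, and from 49 to 57, 44 to 57 and 32 to 40 for MBZ. From 60 to 84 hpf in BBC eyes cox5ba turned to 0.011 and 0.057, cox6a1 went to 0.006 and 0 and cox7a2l turned to 0.037 and 0.063 with quantile normalization and in the authors' values. With the replicate block the counts were 0, 0 and 1 between compounds and 0 for the change of the effect. They were 50, 50 and 38 for the 3 spans of BBC and 54, 52 and 39 for those of MBZ, so that block changed no count of members by more than 1.5 times. A replicate block within each exposure time left the member counts between compounds as they were. The share of all tested probes called was then 12.1% at 36 h, against 5.62% in the main fit. For the change of the effect it was 2.17%, against 0.362%. With only the compared groups in the fit, 0.448% of all tested probes were called at 36 h. The normexp correction was not run, since its fit gave a strongly negative mean background on 4 of 24 arrays, down to -2185.4; that subtraction from the median signal took its place and was chosen after seeing the data.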

Other observations

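For 20 members several probes were tested, and their changes had the same sign in 17 from 60 to 72 hpf and in 15 from 72 to 84 hpf in BBC eyes. Between compounds at 36 h the sign was the same in 12 of the 20, and 0 had probes called in opposite directions. Between ages the probes of 2 genes were called in opposite directions. For atp5meb, a small membrane subunit of complex V, the brighter probe was at -0.43 from 60 to 72 hpf and the other at 0.31. For atp5fa1, the alpha subunit of complex V, the brighter probe was at -0.41 from 72 to 84 hpf and the other at 0.83. Which transcripts these probes report was not tested.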
